A study of Homo sapiens with 17 samples.

Results

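HPr1AR cells are a non-malignant human prostate epithelial line. RNA of vehicle-treated, wild-type HPr1AR cells was pulled down with an antibody against N6-methyladenosine (m6A) in 3 samples and with unspecific immunoglobulin G (IgG) in 3 samples, and the regions listed for this comparison are described here. Every region of the deposited HPr1AR table was taken, 139373 of the 326944 regions in the tables of the whole series, which has 17 samples of 3 prostate lines. The cells were grown as triplicates in keratinocyte medium without serum per the labels' protocols. The table gives 1 combined value per region and none per sample, so the spread between the 3 samples of a pull-down cannot be given, and each statement compares the 2 pull-downs as wholes.

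m6A is the most common internal base modification of messenger RNA. It is written by a complex built around METTL3 and METTL14, removed by FTO and ALKBH5, and bound by reader proteins of the YTH family that affect splicing, export, translation and decay of the transcript. In mammalian mRNA it is known to gather in long internal exons and around stop codons, mostly in a GGAC-like sequence, and it is also placed on primary microRNA transcripts and long non-coding RNAs. HPr1AR grows as a basal-like epithelial culture, in which keratins, laminins and integrins are abundant transcripts. An IgG pull-down picks up RNA without regard to the mark and mostly follows how much RNA there is.

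The deposited fold of each region subtracts the log rate of the reference pull-down 2 times, so the whole reads of the region's representative window (the window that set its p-value) were rebuilt from the fold and the p-value for 139332 regions, and 41 stayed undetermined. The rebuilt depths were 5.13 M reads in the numerator, taken from the table's name to be m6A, and 11.7 M in the reference, taken to be IgG. A value written 62 against 12 reads is therefore m6A against IgG, and its log2 read ratio sets these against the depths. "Higher" means more reads in m6A with an adjusted p under 0.05 in an exact binomial test over all regions, which covers counting error only. Brackets of values are 95% exact binomial (Clopper-Pearson) limits, and a count of 0 is set to 3 reads. The window was chosen for a small p-value, which falls with m6A reads, and ratios were higher in regions with many windows. When the ratio is centred on the median of the intron regions, every log2 value is lower by 0.70, values that this brings below 0 are named where they are called, and the genes of the fixed lists that are higher go from 375 to 307.

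MicroRNA genes are described first, since their hairpins lie in long primary transcripts. Exon marks named 176 microRNA genes with a RefSeq sequence, in regions with a median width of 2305 bp. Of the 176 genes, 167 shared a region with another gene. A value therefore belongs to the region and is not resolved to 1 gene or to the hairpin. The most-read exon region was higher for 125 of the 176 genes, not past the test for 50, lower for 0 and undetermined for 1, where 86.3% of all genes with an exon region were higher. The mature forms of 9 of them are printed with the seed, bases 2 to 8, in capitals (RefSeq, GRCh38.p14). They were chosen after their values were seen, to set higher regions beside regions that did not pass and to show the genes that share a seed.
hsa-miR-205-5p: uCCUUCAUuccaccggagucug
hsa-miR-22-3p: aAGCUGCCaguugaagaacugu
hsa-miR-210-3p: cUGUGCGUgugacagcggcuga
hsa-miR-221-3p: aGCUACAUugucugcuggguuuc
hsa-miR-222-3p: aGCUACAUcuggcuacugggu
hsa-miR-93-5p: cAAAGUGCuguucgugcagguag
hsa-miR-106b-5p: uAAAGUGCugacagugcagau
hsa-miR-21-5p: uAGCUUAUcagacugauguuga
hsa-miR-31-5p: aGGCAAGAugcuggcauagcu

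MIR205, a microRNA gene of basal epithelium, lies with its host MIR205HG in a region of 3970 bp on chromosome 1 that held 74 m6A reads against 113 IgG reads. Its log2 read ratio was 0.58 (0.14 to 1.02, adjusted p = 0.0275 in the exact binomial test), which is higher at the rebuilt depths and below 0 after centring on introns. The MIR22 region, which also touches MIR22HG, TLCD2 and WDR81, held 62 against 12 reads, a log2 read ratio of 3.56 (2.65 to 4.59). MIR210, a gene induced by low oxygen, had 60 against 4 reads and a ratio of 5.10 (3.67 to 7.02) in the region of MIR210HG. MIR221 and MIR222, whose printed seeds are identical, share 1 region with 22 against 11 reads and a ratio of 2.19 (1.08 to 3.38). MIR93 and MIR106B, which share the seed AAAGUGC, lie within the replication gene MCM7. Their region, which also touches COPS6 and MIR25, held 48 against 48 reads at a ratio of 1.19 (0.58 to 1.80). The regions of MIR21 in VMP1 (47 against 86 reads, 0.32, limits -0.23 to 0.85) and of MIR31 in MIR31HG (7 against 25 reads, -0.65, limits -2.10 to 0.60) did not pass, although the most-read region of MIR31HG did (49 against 47 reads, 1.25).

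Across all regions, 52963 were higher (38.0%) and 126 were lower (0.0904%) in the m6A pull-down. The split depends on the scaling: after centring on introns 39245 were higher and 2374 lower, and at a threshold of 0.01 without centring 44283 and 15. The authors' deposited table lists all 139373 regions as up, and 134462 of them (96.5%) under its own adjusted p of 0.05. Among regions with rebuilt reads, the 134421 with at least 1 m6A read passed it and the 4911 with none did not. It also passed 124 of the 126 lower regions, so it does not separate higher from lower regions. Higher regions were wide, with a median of 590 bp against 140 bp for the others, and their windows held a median of 17 m6A reads and 2 IgG reads. The median log2 read ratio was 3.19 in the higher regions and 1.30 over all regions. No IgG read was found in 13126 of the higher regions (24.8%), whose ratios use the 3 reads set for a count of 0 and are not limits. Width and call moved together: 7.25% of the 5969 regions of 1 window were higher (1.26% when these were tested and adjusted alone), 50.5% of those with 21 to 50 windows and 86.2% of those with 201 to 500. The part of the number of windows searched in this rise was not tested.

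Regions that touch an exon made up 49.0% of the table, and 43.5% of these 68291 regions were higher. An exon alone was touched by 49454 regions, of which 37.0% were higher with a median log2 read ratio of 1.12. Regions over an exon and a promoter (18837) were higher in 60.6% of cases, with a median ratio of 2.15. The 50763 intron regions were higher in 24.5% and had a median ratio of 0.70, from a median of 4 m6A reads and 5 IgG reads. Introns with a promoter mark differed little from that, with 25.7% of 5047 higher. The 1626 regions that touch a promoter but no exon or intron were higher in 70.3%, and 61.5% of the 13646 regions outside annotated genes were, both from a median of 7 m6A reads and 1 IgG read. Median total reads were 9 in both classes, as in intron regions, so at few IgG reads a listed region held mostly m6A reads. The part of this listing in the shares was not tested. At like total reads in the window, introns passed more often than exon-only regions in every class below 80 reads. Width and number of windows were not matched. With up to 9 reads 16.6% of introns and 13.7% of exon-only regions passed, and with 10 to 19 reads 23.7% and 18.4% did. The median ratios with 10 to 19 reads were 0.38 and 0.45. With 20 to 39 reads 76.0% of 2990 introns and 41.4% of 9736 exon-only regions passed. With 40 to 79 reads introns again passed more often, at median ratios of 4.74 and 3.51. The total includes the m6A reads that set the call, so the order within these classes cannot be set against the lower share of introns over all reads. Exon and promoter regions with 10 to 19 reads passed in 41.7%. With 80 or more reads the order of introns and exon-only regions was the other way, as 87.8% of 49 and 91.4% of 3021 passed.

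**Figure D1:**
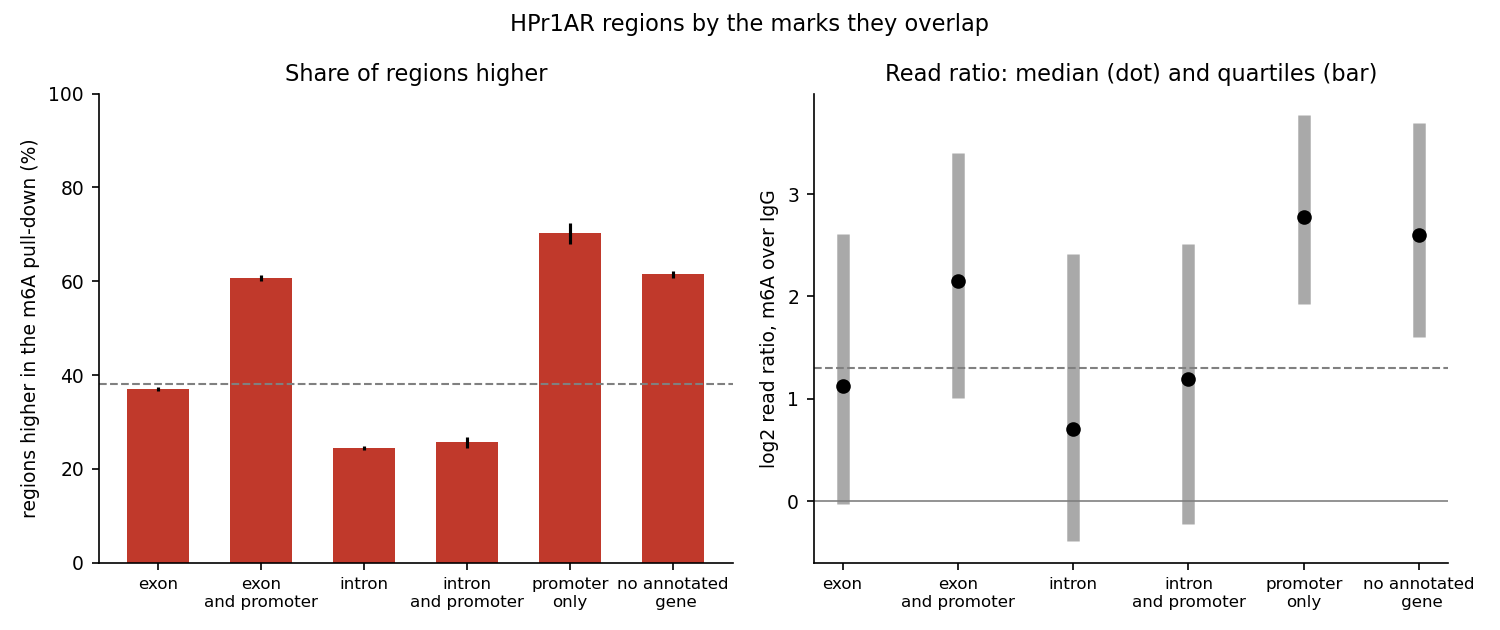
Left, share of HPr1AR regions higher in the m6A pull-down (percent, bars with 95% exact binomial limits) by the marks a region overlaps. Right, median (dot) and quartiles (bar) of the log2 read ratio of m6A over IgG; dashed lines give all regions (38.0% and 1.30). Promoter-only regions stand at 70.3% and intron regions at 24.5%.

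Exon regions were placed within their gene by the neighbouring exons listed to their left and right within 10000 bp. Internal exon regions, with other exons of the gene on either side, were higher in 28.3% of 35446 cases. Regions with another exon of the gene listed only downstream, called the first exon side, were higher in 54.4% of 8914. Those with one listed only upstream, called the last exon side, were higher in 60.7% of 15816. Those with no other exon of the gene within reach were higher in 62.4% of 6734. An internal exon beside an intron longer than 10000 bp also falls in these classes, so they are not first or last exons as such. Width was not equal among these classes, with medians of 240, 390, 710 and 510 bp, so shares were also taken within classes of width. Up to 200 bp, 6.64% of internal regions were higher, against 17.8% on the first exon side, 17.7% on the last exon side and 22.1% without a neighbour. Over 1000 bp the shares were 63.1%, 86.2%, 86.6% and 90.2% in the same order. Internal regions had the lowest share in all 4 width classes, and the first and last exon sides differed most between 201 and 400 bp (56.8% and 46.9%).

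**Figure D2:**
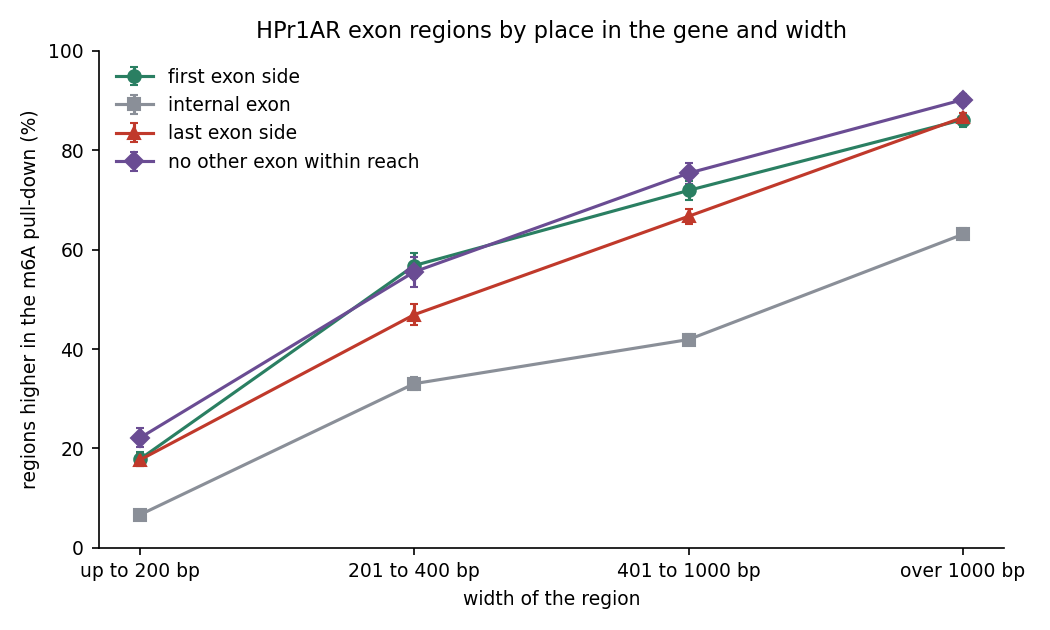
Share of exon regions higher in the m6A pull-down (percent, with 95% exact binomial limits) by width of the region, for 4 places in the gene. Internal exon regions lie lowest at every width, from 6.64% to 63.1%, and regions with no other exon within reach end at 90.2%.

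Outside annotated genes the share of higher regions changed with the distance to the nearest exon. Regions downstream of a gene were higher in 46.7% of 895 within 1000 bp and in 59.7% of 1301 between 5000 and 10000 bp. Upstream of a gene 68.0% of 881 were higher between 2000 and 5000 bp, and 65.6% of the 7400 regions with no exon within reach were. The median IgG reads fell from 3 just downstream of genes to 1 farther out, and the median m6A reads were 6 and 7. Median total reads were 9 in each of these classes, and the part of the listing in the rise of the share was not tested. Intron regions within 100 bp of an exon of their gene were higher in 31.5% of 571, and those farther away in 23.0% to 26.8%, so that the distance classes of introns differed less than those outside genes.

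Genes were described by the exon region with the most rebuilt reads. Of 14731 genes with an exon region, this region was higher in 12719 (86.3%) and lower in 23 (0.156%), with a median log2 read ratio of 3.09. At least 1 exon region was higher in 13392 genes (90.9%). The p of the most-read region is listed at 0 for 6236 genes. In the middle 90% of these, its m6A reads lay between 60 and 72 and its IgG reads between 2 and 59, since the deposited p reaches 0 at about that many m6A reads. The order of these ratios therefore follows the IgG reads, and a lower ratio among abundant transcripts is not shown to be a weaker mark.

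The long transcripts with the most higher exon regions were led by RNF213, a ubiquitin ligase gene with 26 of 35 exon regions higher, and DST, the cytolinker of hemidesmosomes, with 21 of 56. PCNT, which encodes the centrosome protein pericentrin, had 20 of 30 higher and TNRC18 had 18 of 18. The imprinted non-coding transcript KCNQ1OT1 had 16 of 31, the cadherin-related FAT2 had 14 of 19, and ANKRD11 had 13 of 15. The chromatin remodelling gene BPTF, the Wnt co-receptor gene LRP5 and the cytolinker gene MACF1 each had 13 higher regions, of 23, 19 and 55. The most-read RNF213 region, on chromosome 17 from 78305651 to 78306450, held 72 m6A reads against 32 IgG reads, a log2 read ratio of 2.36 (1.74 to 3.01). DST and MACF1 had a larger number listed but median exon ratios of 0.70 and 0.32, whereas TNRC18 had a median of 2.58 over its regions and KCNQ1OT1 of 2.47.

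Among genes with at least 10 exon regions, every region was higher in TNRC18, the transcription factor gene ZFHX3 (12 of 12), IGSF3 (10 of 10) and the mitochondrial protease gene LONP1 (10 of 10). MTCL1, a microtubule gene, followed with 13 of 14, and ANK3, the adaptor gene BCAR3 and the zinc finger gene ZNF462 with 11 of 12 each. CMYA5 and the heparan sulfate enzyme gene NDST1 had 10 of 11. The most-read CMYA5 region held 27 m6A reads and no IgG read, so its log2 read ratio was set to 4.36, with an exact lower limit of 3.96. LONP1, at 70 against 59 reads, had the lowest ratio of the 10 genes in its most-read region, 1.44 (0.92 to 1.96). ANK3 had the largest of those with an IgG read, 4.85 (3.55 to 6.52), from 63 against 5.

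At the other end, DDX60, a helicase gene of the interferon response, had 32 exon regions in the table and none higher, with a median ratio of -1.06 over them. The proteasome adaptor gene ECPAS and TTC37, a gene of the RNA-degrading SKI complex, had none of 25 higher, the nuclear pore gene NUP205 none of 23 and LRPPRC, which binds mitochondrial mRNA, none of 21. Their most-read regions held between 6 m6A reads against 37 IgG reads in LRPPRC (-1.43, limits -2.97 to -0.18) and 18 against 18 in TTC37 (1.19, limits 0.16 to 2.22), and none passed. These 5 genes were picked for having many regions and none higher, and DDX60, ECPAS and TTC37 each had 1 exon region lower.

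**Figure D3:**
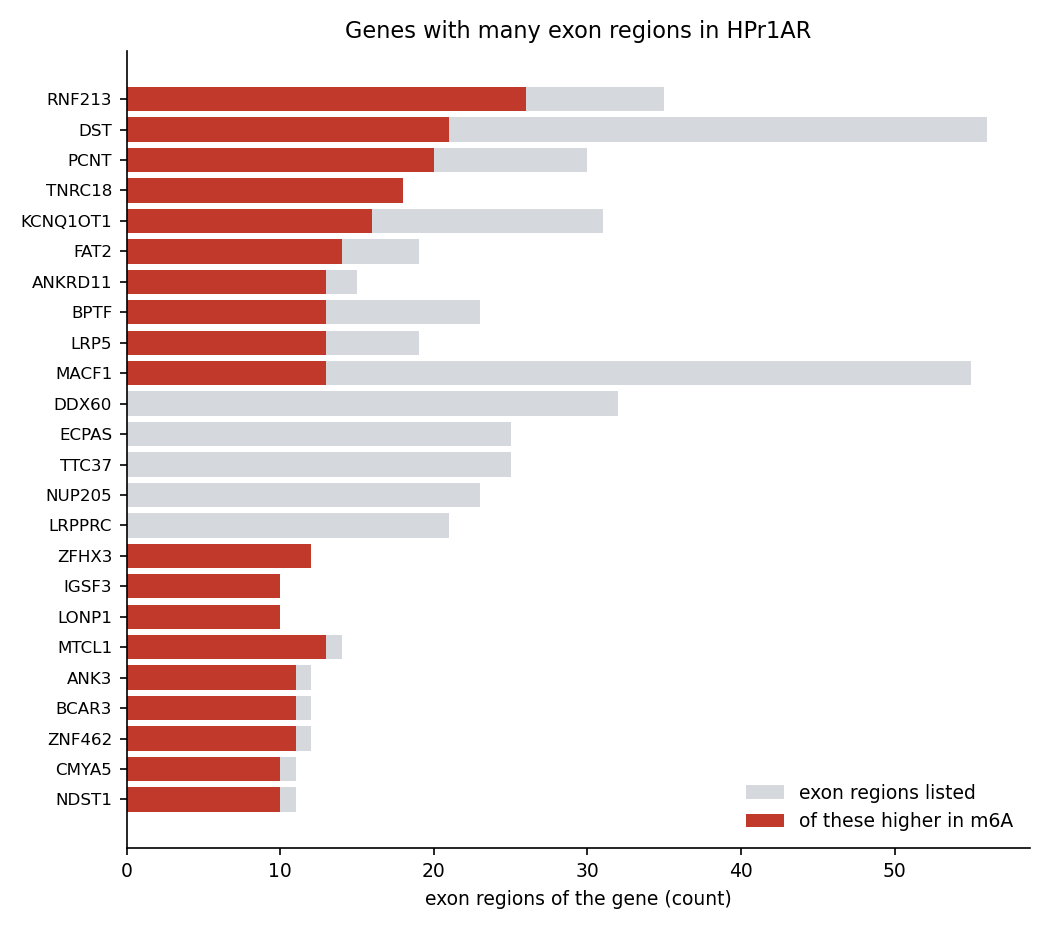
Exon regions listed per gene (grey) and those of them higher in the m6A pull-down (red), as counts, for the genes with the most higher regions, the genes with many regions and none higher, and the genes with the largest share higher. RNF213 has 26 of 35, TNRC18 18 of 18 and DDX60 none of 32.

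The genes of the m6A machinery were in the table themselves. Of 13 writer genes, all with an exon region, 12 were higher in their most-read region (92.3%, against 86.3% of all genes), and the list's median log2 read ratio was 3.45 against 3.09 over all genes. The catalytic subunit gene METTL3 held 63 against 15 reads, 3.26 (2.43 to 4.18), on chromosome 14 from 21971291 to 21972030. Its partner METTL14 and the U6 writer METTL16 each held 61 against 8 reads, 4.12 (3.05 to 5.40). Without regions listed at a p of 0, METTL14 did not pass (1.19) and METTL16 did (4.42). RBM15B, which brings the complex to its targets, had the largest ratio of the list with 60 against 4 reads, 5.10 (3.67 to 7.02), followed by the cap methyltransferase gene PCIF1 at 4.34. The scaffold gene ZC3H13 had the most higher regions, 11 of 17, at a ratio of 2.05 in the most-read one, and the adaptor gene WTAP had 2.35. METTL5, which modifies ribosomal RNA, held 30 against 41 reads and did not pass (0.74, limits 0.01 to 1.45).

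Of 16 reader and eraser genes 14 had an exon region and 13 of these were higher (92.9%, against 86.3% of all genes), with a median ratio of 2.39 against 3.09. The eraser FTO held 64 against 9 reads, 4.02 (3.01 to 5.21), and the eraser ALKBH5 held 57 against 48, 1.44 (0.86 to 2.02), so both erasers were higher. Over the summed reads of all their exon regions the ratios were 2.50 and 1.93, and the medians over exon regions were 1.29 and 1.44, so their order depends on the measure. Of the YTH readers, the nuclear YTHDC1 had 15 m6A reads and no IgG read, a ratio set to 3.51. The cytoplasmic YTHDF1, YTHDF2 and YTHDF3 had 2.30, 2.73 and 2.61. Stabilising readers of the IGF2BP family were represented by IGF2BP3 at 3.09 and IGF2BP2 at 2.15, and IGF2BP1 was not listed. HNRNPA2B1, an RNA-binding protein gene of microRNA processing, was the member that did not pass in its most-read region (49 against 120 reads, -0.10, limits -0.61 to 0.39), although 3 of its 4 exon regions were higher.

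Retinoid genes bear on the study's title, which names the retinoic acid receptor gamma gene RARG. Of 25 retinoid receptor and enzyme genes 15 had an exon region, 14 of these were higher (93.3%, against 86.3% of all genes) and 10 were not listed, among them RARB, RXRB, RXRG, STRA6, CYP26A1 and TGM2. RARG held 30 m6A reads against 24 IgG reads in its most-read region, on chromosome 12 from 53604391 to 53605640 on the side of the last exon, a ratio of 1.51 (0.69 to 2.35), and 3 of its 4 exon regions were higher. After centring on introns this RARG region was at 0.81 and did not pass. The alpha receptor gene RARA held 61 against 8 reads, 4.12 (3.05 to 5.40), with 6 of 6 higher, and the partner receptor gene RXRA held 65 against 16, 3.21 (2.41 to 4.10). The retinol-oxidising DHRS9 had the largest ratio, 7.10 (4.56 to 12.42), from 60 against 1, and LRAT, which stores retinol as esters, had 5.78 (3.84 to 8.86), from 48 against 2. CYP26B1, which breaks retinoic acid down, had 62 against 6 reads and 4.56. The retinoic acid-making ALDH1A3 was the most abundant in IgG and lay lower, with 74 against 74 reads and 1.19 (0.71 to 1.68). Its call was lost after centring (0.49) and without regions listed at a p of 0 (0.56). The binding protein gene CRABP2 did not pass in its most-read region (19 against 21, 1.05, limits 0.07 to 2.01) and passed over its summed reads (1.35).

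Of 22 genes on a list of steroid receptor coregulators and partner factors 19 had an exon region and 18 were higher (94.7%, against 86.3% of all genes), with a median ratio of 3.10. The prostate homeobox gene HOXB13 (40 against 1 reads, 6.51, limits 3.95 to 11.85) had the largest ratio of the list, and the coactivator gene NCOA1 was also among the largest (61 against 3, 5.54, limits 3.92 to 7.85). The pioneer factor gene FOXA1 held 64 against 17 reads, 3.10. HSP90AA1, a chaperone of steroid receptors, held 79 against 146 and did not pass (0.30, limits -0.11 to 0.71). The secretory prostate genes KLK2, KLK3 and TMPRSS2 were not listed, so no read count can be given for them.

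Basal epithelial markers were all present in the table. All 22 basal markers had an exon region, with a median of 80.5 IgG reads in the most-read one against 10 over all genes, and 15 were higher (68.2%, against 86.3% of all genes), a count that fell to 8 after centring on introns. The median ratio over all 22 was 1.06. The basal master regulator TP63 held 63 against 40 reads, 1.85 (1.25 to 2.46), in its most-read region. Only 2 of the 10 TP63 exon regions were higher, and their median ratio was 0.24. The nerve growth factor receptor gene NGFR held 63 against 3, 5.58 (3.97 to 7.90). The integrin genes ITGA6 and ITGB4 had 1.08 and 0.92 and did not pass after centring. The keratins of the basal layer did not pass: KRT5 held 83 against 149 reads (0.35, limits -0.06 to 0.74), KRT14 82 against 155 (0.27, limits -0.13 to 0.67) and KRT17 79 against 177 (0.03, limits -0.37 to 0.42), and none of the 2 exon regions of each was higher. The stratifin gene SFN, with 202 IgG reads, had a ratio of -0.13. Of the basal keratins on the list KRT15 passed, with 75 against 83 reads and 1.04 (0.57 to 1.51), but not after centring (0.34).

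Luminal secretory genes were mostly missing: KLK3, KLK2, ACP3, MSMB, TMPRSS2, FOLH1 and TRPM8 were not listed, and 10 of the 13 luminal markers with an exon region were higher, or 6 after centring (76.9%, against 86.3% of all genes, before it). For the stromal and the immune or endothelial markers below, the same 86.3% is the share to compare with. Among the largest ratios were those of the epithelial transcription factor gene ELF3 (61 against 3 reads, 5.54, limits 3.92 to 7.85) and STEAP2 (4.54). KRT8 and KRT18, the simple-epithelium keratins, share the value of 42 against 71 reads and did not pass (0.43, limits -0.15 to 1.00). Of the stromal markers DCN, LUM, COL1A2 and COL3A1 were not listed, PDGFRA did not pass, and 12 of 13 with an exon region were higher, led by the transition factors ZEB1 (64 against 2, 6.19, limits 4.28 to 9.27), ZEB2 (61 against 2, 6.12, limits 4.21 to 9.20) and TWIST1 (66 against 4, 5.23). The immune and endothelial markers PTPRC, CD3E, PECAM1, VWF, CDH5 and KDR were not listed. The 5 with an exon region were all higher, with 4 against 0 reads in ITGAM and 66 against 37 in CD68. Their median was 0 IgG reads, and a region without an IgG read is in the table through its m6A reads alone. Of the neuroendocrine markers SYP and INSM1 were not listed and 5 had an exon region. Of these 5, 3 were higher (60%, against 86.3% of all genes) and 2 did not pass. CHGA held 8 against 1 reads (4.19, limits 1.29 to 9.66), and SOX2 held 59 against 0, a ratio set to 5.49.

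**Figure D4:**
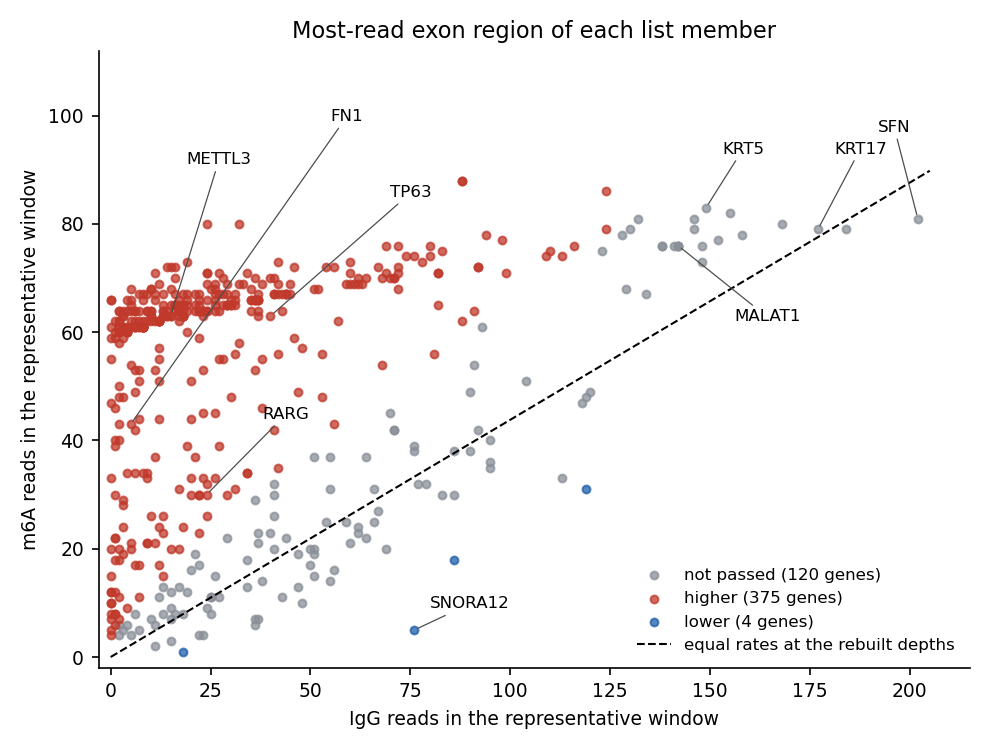
m6A reads against IgG reads in the representative window of the most-read exon region, 1 point per gene of the fixed lists (375 higher, 120 not past the test, 4 lower). The dashed line marks equal rates at the rebuilt depths; m6A reads level off between about 60 and 90 while IgG reads run up to 202, so KRT5, KRT17 and SFN lie near the line.

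Signalling lists gave counts close to the background of 86.3%. In the Notch pathway 20 of 20 genes with an exon region were higher, led by the coactivator MAML3 (60 against 2 reads, limits 4.18 to 9.18) and the ligand gene DLL4 (22 against 1, 5.65, limits 3.02 to 11.02). The receptor genes NOTCH1, NOTCH2 and NOTCH3 had ratios of 2.30, 2.50 and 4.19 and the ligand gene JAG1 had 2.35. In the Wnt pathway 26 of 28 were higher at a median ratio of 3.83, led by the receptor genes FZD8 (64 against 2, 6.19, limits 4.28 to 9.27) and FZD4 (60 against 2, limits 4.18 to 9.18), with FZD7 at 66 against 0 reads. The central effector CTNNB1 lay lowest of them, at 54 against 68 reads and 0.86 (0.31 to 1.39), and did not pass after centring. In the TGF-beta and BMP pathway 29 of 30 were higher, and the target genes of BMP signalling ran from ID2 (62 against 1 reads, 7.14, limits 4.61 to 12.47) over ID3 (1.33) to ID1 (0.84), which did not pass after centring. The ligand genes TGFB2 (46 against 1, 6.71, limits 4.16 to 12.05) and BMP4 (55 against 0, set to 5.39) were near the top.

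Of 21 Hippo pathway genes 19 were higher (90.5%, against 86.3% of all genes). The transcription factor TEAD4 (61 against 0 reads, set to 5.54) was on top, and the coactivator YAP1 held 71 against 60, 1.43 (0.92 to 1.95). Its target genes CCN1 and CCN2 had 1.17 and 2.44, and the kinase genes LATS1 and LATS2 had 8 of 10 and 7 of 7 exon regions higher. Of 37 ERBB and growth factor genes 32 were higher (86.5%, against 86.3% of all genes). They ran from the receptor genes FGFR2 (47 against 0, set to 5.16) and ERBB3 (4.62) to DUSP1 (1.19) and EREG (1.05). NRAS (-0.37) and BRAF (0.32), genes of the MAP kinase cascade, did not pass in their most-read regions, which held at most 17 m6A reads. EGFR, by contrast, held 67 against 44 reads, 1.80 (1.23 to 2.38). In the checkpoint and cell cycle list 24 of 28 were higher (85.7%, against 86.3% of all genes). The phosphatase gene PPM1D (59 against 1, 7.07, limits 4.54 to 12.40) and the kinase gene WEE1 (62 against 2, 6.14, limits 4.23 to 9.22) led, while RB1, CHEK2, RBL1 and CCNA2 did not pass.

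Immediate early genes, whose short-lived mRNAs are made within minutes of a stimulus, were higher in 25 of 25 cases, where 86.3% of all genes were. Of their 51 exon regions 43 were higher (84.3%, against 45.0% of exon regions counted per gene over all genes). Widths were not matched in this comparison, and wide regions were higher more often. The median ratio of the immediate early genes, 2.03, was below that of all genes, at a median of 37 IgG reads. The nuclear receptor genes NR4A2 (61 against 2 reads, 6.12, limits 4.21 to 9.20) and NR4A1 (58 against 2, 6.05, limits 4.13 to 9.13) had the largest ratios. FOS held 66 against 37 reads (2.03), JUN 69 against 42 (1.91) and MYC 76 against 80 (1.12, limits 0.64 to 1.59), and FOSL1 and IER2 had the lowest, 0.98. Of these MYC, FOSL1 and IER2 did not pass after centring. All 24 adhesion and junction genes were higher as well, where 86.3% of all genes were, from FAT4 (64 against 7, 4.38, not past the test without regions listed at a p of 0) to the plakoglobin gene JUP (79 against 124, 0.54, limits 0.11 to 0.96), whose value fell below 0 after centring. E-cadherin, CDH1, held 80 against 32 reads (2.51, limits 1.90 to 3.15) and P-cadherin, CDH3, a basal cadherin, 76 against 72 (1.27, limits 0.78 to 1.75), which did not pass after centring. Histone lysine methyltransferase genes were higher in 26 of 27 cases (96.3%, against 86.3% of all genes) at a median ratio of 3.19, from SUV39H1 at 5.10 to SMYD2, which did not pass (3 against 15 reads).

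**Figure D5:**
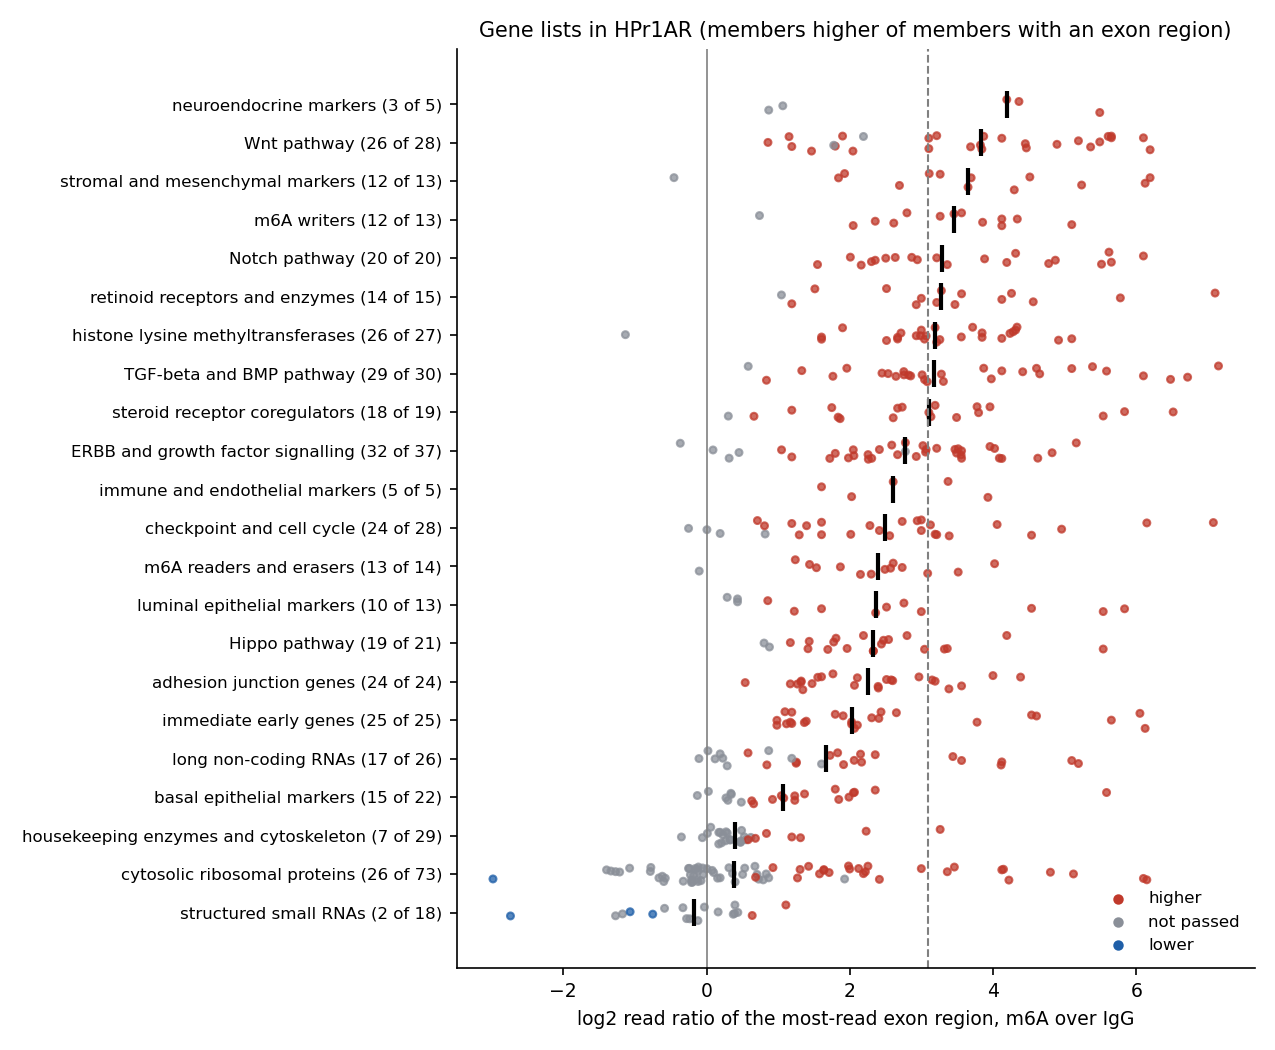
Log2 read ratio of m6A over IgG in the most-read exon region, 1 point per gene and row per list. Brackets give the number higher of those with an exon region. Black bars are list medians, the dashed line is the median of all genes (3.09), and for genes without an IgG read the count was set to 3. Structured small RNAs, ribosomal protein genes, housekeeping genes and basal markers have the lowest medians, and the Wnt list at 3.83 lies above all lists but the neuroendocrine one of 5 genes.

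Genes of the translation machinery and of metabolism had the smallest shares among the larger lists, against 86.3% of all genes. Of 73 cytosolic ribosomal protein genes with an exon region 26 were higher and 1 was lower, with a median ratio of 0.38 that falls below 0 after centring, and 43 had at least 1 higher exon region. RPS29 (62 against 2 reads, 6.14, limits 4.23 to 9.22), RPS24 (30 against 1, limits 3.51 to 11.45) and RPL28 (61 against 4, 5.12) led, and RPS7 was lower in its most-read region (1 against 18, -2.98, limits -8.36 to -0.32) but not over the reads of all its exon regions (0.12). Ribosomal protein genes have many processed copies in the genome, and how the authors counted reads that match several places is not given in the sources used here, so these values are uncertain. Of 29 housekeeping and cytoskeleton genes 7 were higher in the most-read region, 2 after centring and 16 over their summed reads. They were led by TUBA1B (21 against 5, 3.26) and NPM1 (39 against 19, 2.23), while ACTB (78 against 158, 0.17, limits -0.24 to 0.57), LDHB (-0.06) and PGK1 (22 against 64, -0.35) did not pass. The reads of GAPDH could not be determined.

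Long non-coding and coding genes had like shares, as 87.1% of 761 lncRNA genes and 87.2% of 13116 protein-coding genes by RefSeq type were higher (14633 of the 14731 symbols, 99.3%, matched RefSeq). On a list of known lncRNAs 17 of 26 were higher, led by KCNQ1OT1 (64 against 4 reads, 5.19, limits 3.76 to 7.11) and LINC-PINT (60 against 4, 5.10). The nuclear transcripts MALAT1 (76 against 142, 0.29, limits -0.13 to 0.70) and NEAT1 (80 against 168, 0.12, limits -0.28 to 0.51) did not pass in their most-read regions, and neither did the host transcript SNHG8 or DANCR. Small nucleolar RNA genes were higher in 45.5% of 187 cases at a median ratio of 0.73. Of 18 structured small RNAs 2 were higher, the RNase P RNA gene RPPH1 (68 against 72, 1.11, limits 0.61 to 1.61) and SCARNA17 (75 against 110, 0.64, below 0 after centring). SCARNA5 (31 against 119, -0.75, limits -1.37 to -0.17), SCARNA6 (18 against 86, -1.07, limits -1.89 to -0.32) and SNORA12 were lower, and the telomerase RNA gene TERC did not pass (30 against 83, -0.28).

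The 126 regions that passed the test as lower stand against 464 that were lower at an unadjusted p under 0.05. Of the 126, 108 touched an exon, 13 an intron and 5 no annotated gene. The smallest adjusted p values were those of SNORA12 in an intron of CWF19L1 (5 against 76 reads, -2.74, limits -4.40 to -1.45) and of the peroxidase gene PRDX1 (16 against 98, -1.42, limits -2.29 to -0.65), which did not pass over its summed exon reads (-0.14). BZW1 (11 against 77, -1.62), SCARNA18 in an intron of TMEM167A (1 against 33, -3.85, limits -9.20 to -1.28) and the actin-binding gene TWF1 (1 against 30, -3.72, limits -9.07 to -1.13) followed. Of the 23 genes whose most-read exon region was lower, 7 were small nucleolar RNA genes, 4 were other small RNAs of the SCARNA family and 9 were protein-coding by RefSeq type.

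The letters at transcript starts were compared because regions over exon and promoter were higher more often than other exon regions. The motif GGAC, read on the transcript strand only, is present in the first 50 transcribed bases of 18.8% of all 27305 RefSeq promoters with a symbol. It is present in 19.5% of the 7244 genes with an exon and promoter region higher and in 19.4% of the 2073 genes with such regions but none higher. The longer motif GGACT, which contains GGAC, is present in 4.87%, 4.53% and 4.29% in the same order. The shares with the motif thus differed by less than 1 percentage point between genes with and without a higher region at the start, and the regions are much longer than these 50 bases.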

How the data were processed

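RNA of vehicle-treated HPr1AR cells was pulled down with an m6A antibody kit or with IgG (3 samples each) and sequenced, per the labels' protocols. The deposited table lists 139373 regions made of neighbouring windows. Its p-value and adjusted p per region and the log2 fold of the representative window are the authors' values, and its numbers of windows, positions and overlap marks are other deposited columns. The submitters' processing notes name hg38. For the aligner, the counter and the filters, nothing is stated: not given in the sources used here. Only 13.6% of 139245 gene and region pairs overlap their gene's span in GRCh38, so the build of the table is not established here and positions are printed as the table gives them. The numerator is unnamed in the header and was taken from the table's name. Samples were grouped by their titles, and the sample descriptions give an order that conflicts with these titles.

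The deposited log2 fold equals the log2 of the numerator reads plus 0.343, minus 2 times the log2 of the reference reads plus 0.782, plus a constant. This was fitted on 4522 regions of 1 window, with a largest residual of 6.04e-05 log2 units. Whole reads were then sought that give both the fold and the p of a region, and were found for 99.97% of the regions with a p above 0 and 99.92% of those listed at 0. After the folds had been shifted at random, reads were found for 0.186% and 8.95%, so the reads of regions with a p of 0 are less certain. The added constants sum to 1.12, which at the default of edgeR would stand for 9.00 libraries and not 6, and which samples entered the table is not known. Read ratios were taken at the rebuilt depths (5.13 and 11.7 M reads) and tested with an exact two-sided binomial test, adjusted by Benjamini and Hochberg over all regions at 0.05. The test pools the samples of a pull-down and covers counting error only, and reads without molecular identifiers are not independent molecules.

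Data were simulated from the fitted formula with this table's depths, 1 window per region and the read totals of regions with a p above 0. Of 6000 read pairs 99.98% were rebuilt exactly, which tests the search for reads and not the formula. Of 5200 unchanged regions 0.0577% were called. Of 200 regions with a true log2 ratio of 1, 7% were called higher, with 31.5% at 2 and 72.5% at 4. Regions listed at a p of 0 and the choice of a window among several were not simulated. Named genes were the 10 with the most higher exon regions, the 5 with the most regions and none higher, the 10 with the largest share among those with 10 or more, the 5 leading lower regions, the extremes of each list, and RARG, TP63, KRT5, METTL3, FTO and ALKBH5, to which other list members of known function were added after their values were seen. Some genes of this rule are not reported here. The genes, lists and members were chosen with earlier results of these data known. Python 3.11, scipy 1.17, pandas 2.3 and numpy 2.4 were used.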

Additional observations from a re-analysis of the deposited data

How the results depend on the processing

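No paired analysis was possible because the table has no value per sample, and for the same reason no replicate could be left out. The 134462 regions under the authors' adjusted p stayed within 1.5 times under both alternatives. They were again 134462 at 0.01, as every region rebuilt with an m6A read passes that call, so this count says little about the pull-down. The 52963 higher regions ranged from 39245 to 52439 under the 6 other alternatives, but among regions of 1 window alone, an alternative chosen after seeing the data, 75 were higher and 0 lower (5969 tested), where fewer regions were tested and no window was chosen among several. The 126 lower regions became 15 at a threshold of 0.01 and 2374 after centring on introns, which moved the share of higher among called regions from 99.8% to 94.3%. The share of exon-marked regions that were higher, 43.5%, was 44.1% with at least 2 windows, 50.9% with at least 10 reads and 41.0% without regions over several genes. The 375 higher list members ranged from 282 to 421. Without regions with a p of 0, 10 of 25 immediate early genes, 11 of 26 long non-coding RNAs and 2 of 5 immune or endothelial markers were higher. Genes with all exon regions at a p of 0 are not tested there and count as not higher, also in the 282. The most-read region of 21 of the 25 immediate early genes is listed at a p of 0.

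Centring turned the sign of the log2 read ratio of ACTB (-0.53), BRAF (-0.39), CHEK2 (-0.51), DANCR (-0.51), ECPAS (-0.51), HSP90AA1 (-0.40), JUP (-0.16), KRT14 (-0.43), KRT17 (-0.68), KRT18 and KRT8 (-0.27), KRT5 (-0.36), MALAT1 (-0.42), MIR205 and MIR205HG (-0.13), MIR21 and VMP1 (-0.39), NEAT1 (-0.58), NUP205 (-0.35), RBL1 (-0.70), SCARNA17 (-0.067) and SNHG8 (-0.48), by the 0.70 that centring takes off. It kept the sign but ended the call of 21 more of the 158 named genes: ALDH1A3 (0.49), CCN1 (0.47), CDH3 (0.56), CTNNB1 (0.15), DST (0.53), DUSP1 (0.49), EREG (0.34), FAT2 (0.62), FOSL1 and IER2 (0.28), ID1 (0.13), ITGA6 (0.37), ITGAM (0.90), ITGB4 (0.22), KRT15 (0.34), MIR106B and MIR93 (0.49), MIR31HG (0.55), MYC (0.41), RARG (0.81) and RPPH1 (0.40). Centring also gave a lower call to genes that had not passed, such as ACTB, KRT17, NEAT1 and HNRNPA2B1 (-0.81). The same held for LDHB (-0.76), LRPPRC (-2.14), NRAS (-1.07), PGK1 (-1.06) and SFN (-0.83). Summing reads over all exon regions turned ECPAS (-0.47), HNRNPA2B1 (0.61), NRAS (0.73), NUP205 (-0.57), RB1 (-0.24), RPS7 (0.12), SMYD2 (0.29) and TTC37 (-0.64), and ended the call of JUP (0.13) and PRDX1 (-0.14). Summed reads gave a higher call to CRABP2 (1.35), HSP90AA1 (0.69), KRT8 (0.68), NEAT1 (0.32), HNRNPA2B1 and NRAS. They gave a lower call to genes such as DDX60 (-0.89), LRPPRC (-0.46), ECPAS and NUP205. Leaving out regions with a p of 0 turned YTHDF3 (-1.31), for which another region then has the most reads, and ended the call of 14 genes: ALDH1A3 (0.56), CDH1 (0.50), EGFR (0.21), FAT4 (2.41), FOSL1 (0.78), ITGAM (1.61), ITGB4 (0.47), JUP (0.30), LINC-PINT and METTL14 (1.19), RPS29 (0.42), RPS7 (-2.98), YTHDF1 (1.00) and ZEB2 (3.19).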

Other observations

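Introns held higher regions in 5694 of the 8847 genes with an intron region (64.4%). A higher intron region and no higher exon region was found for 758 genes, which include genes without any exon region in the table. The cadherin gene CDH4 had 82 of 274 intron regions higher, beside 7 of 16 exon regions. The kinase gene ADK, with 13 of 218, and THSD4, with 19 of 209, had long lists of intron regions and small shares higher. PPIAL4A (91 of 231) and RGPD5 (64 of 188) belong to families of near-identical copies, so their reads are uncertain.

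The largest number of intron regions under 1 name was that of MIR4315-1, with 488 of 1308 higher. A microRNA gene has no intron of this kind: these regions run from 43.6 to 62.8 Mb on chromosome 17, so the name spans much of the chromosome arm and covers other genes. Regions with an intron mark from microRNA genes alone numbered 132 of 55810 and of these 77 carried MIR4315-1 alone. Of the 77, 54.5% were higher, against 24.5% of the intron regions that name another kind of gene. They are counted as introns in the shares by place above.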
